A study of Mus musculus with 2 samples.

Results

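The genes that surround Chi3l1 on mouse chromosome 1 were examined in WT and Chi3l1 KO Th1 cells. The set holds 55 of the 24421 genes listed in the deposited tables. Members were chosen by symbol as genes close to Chi3l1, which the tables list as Chil1, and Chil1 itself, Chit1 and Ctse were left out. All 55 were present in both tables. In the GENCODE M21 annotation of GRCm38 (the mm10 build that the labels name), 25 of them lay at lower coordinates than Chil1 and 30 at higher coordinates. The farthest members were 2.33 Mb away on the lower side and 1.94 Mb away on the higher side, measured as the gap between gene bodies. A further 62 listed genes lay within 4 Mb of Chil1 and served only for comparison.

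Both samples were C57BL/6J by their labels. The WT sample carried Chi3l1+/+ and the Chi3l1 KO sample Chi3l1-/-, with 1 sample of each genotype (n = 1). Naïve CD4 T cells of young adult mice were activated with anti-CD3 and anti-CD28 antibodies and skewed in vitro to Th1 cells with IL-12, IL-2 and an antibody against IL-4. The KO was a disruption in the whole mouse, so all cells of the culture shared it, and the design of the targeted allele is not given in the sources used here. Because each genotype had a single library, no difference could be tested or checked in a replicate, and the values below compare these libraries only. The RNA came from whole cultures, so fewer cells of a type and less RNA per cell cannot be told apart.

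A chromosome neighbourhood is a set of genes by position and not by function. Genes next to a targeted locus are inherited together with it, and a change at the locus can act in cis on the genes beside it, which is why neighbours are commonly inspected in knock-out comparisons. The neighbours of Chi3l1 include broadly used genes such as the splicing gene Snrpe, the mitochondrial import gene Timm17a and the p53 inhibitor Mdm4. They also include genes of other tissues, such as the cardiac troponin gene Tnnt2 and the proteoglycan genes Optc, Prelp and Fmod.

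The promoters of the 4 members with the largest well counted differences are shown here, because the values below turn on these genes. Each is the RefSeq sequence of GRCm38.p6 from 250 bases before to 50 bases after the annotated start, written 5′ to 3′ on the gene's own strand. Capitals mark CCAAT boxes (CCAAT) and GC boxes (GGGCGG), each searched on both strands. The windows are chr1:134962315-134962614 (plus strand) for Ube2t, chr1:135284035-135284334 (minus strand) for Rnpep, chr1:135765835-135766134 (plus strand) for Phlda3 and chr1:135818348-135818647 (plus strand) for Lad1.
Ube2t: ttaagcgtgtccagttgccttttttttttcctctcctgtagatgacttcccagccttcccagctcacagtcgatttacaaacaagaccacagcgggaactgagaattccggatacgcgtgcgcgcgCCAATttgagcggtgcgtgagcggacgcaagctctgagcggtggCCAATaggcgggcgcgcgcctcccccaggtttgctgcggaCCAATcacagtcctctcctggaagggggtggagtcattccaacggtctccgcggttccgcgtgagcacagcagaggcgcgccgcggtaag
Rnpep: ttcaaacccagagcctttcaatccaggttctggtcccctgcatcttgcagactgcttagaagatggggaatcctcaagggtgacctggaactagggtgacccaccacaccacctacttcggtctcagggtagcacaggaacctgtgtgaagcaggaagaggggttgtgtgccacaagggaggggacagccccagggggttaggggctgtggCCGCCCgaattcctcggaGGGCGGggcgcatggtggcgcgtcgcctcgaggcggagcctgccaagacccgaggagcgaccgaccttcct
Phlda3: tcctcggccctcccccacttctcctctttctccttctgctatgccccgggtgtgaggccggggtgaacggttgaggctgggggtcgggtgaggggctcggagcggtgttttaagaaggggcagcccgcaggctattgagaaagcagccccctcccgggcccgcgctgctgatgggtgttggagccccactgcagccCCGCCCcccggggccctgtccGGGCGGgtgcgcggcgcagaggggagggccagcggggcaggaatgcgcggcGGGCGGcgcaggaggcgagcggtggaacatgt
Lad1: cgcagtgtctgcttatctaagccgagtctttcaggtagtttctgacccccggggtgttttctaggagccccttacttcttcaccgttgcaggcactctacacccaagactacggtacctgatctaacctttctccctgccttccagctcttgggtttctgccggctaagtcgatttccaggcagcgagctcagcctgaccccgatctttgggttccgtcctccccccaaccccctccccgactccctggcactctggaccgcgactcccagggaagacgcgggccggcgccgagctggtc
The Ube2t window held 3 CCAAT boxes and no GC box, whereas the Rnpep window held 2 GC boxes and the Phlda3 window 3 GC boxes, with no CCAAT box in either. The Lad1 window held neither motif. No TATA box (TATAAA, both strands) was in any of these 4 windows. Among all 32851 promoter windows of this length, 37.4% held a CCAAT box, 35.7% a GC box and 13.6% a TATA box. The 4 windows had 28, 14, 26 and 18 CpG dinucleotides in the order printed, against a median of 7 over all windows. The letters are those of the reference strain, and the deposited values per gene hold no sequence of the samples themselves.

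Each deposited value was taken as the log2 of a normalized count to which 1 was added, and the difference given throughout is the KO value minus the WT value. Read numbers rebuilt from the values gave 70623845 reads for WT Th1 and 62958938 for Chi3l1 KO Th1. Chil1, the targeted gene, had 1 read in the library labelled WT and 103 reads in that labelled KO. The higher count was in the KO library, against the labels, so the samples are called below the libraries labelled WT and KO, and every direction rests on those labels. Chit1, the neighbour of Chil1 on the lower side, had values of 6.90 and 6.29. Ctse, a protease gene 2.51 Mb away on the lower side, had 8.59 in the library labelled WT and 13.39 in that labelled KO. Of 9 T cell markers, 8 were listed, and their reads summed to 132719 in the library labelled WT and 117578 in that labelled KO, with none at 0. Among them, Ifng, the Th1 cytokine gene, had values of 11.72 and 13.04. The summed reads of 10 neutrophil markers were 119 and 26, of 7 macrophage markers 708 and 597, of 6 dendritic cell markers 76 and 126, of 5 B cell markers 968 and 1789, and of 5 fibroblast markers 148 and 105. By 2-fold, 1 macrophage marker was higher (Mrc1, 0 and 29 reads) and 2 were lower (such as Lyz2, 34 and 2). Of the dendritic cell markers, 3 were higher (such as Flt3, 18 and 68) and 1 was lower (Itgax, 44 and 5). All fibroblast reads were of Col1a1.

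Members fell into 4 classes of level. A value of 8 or more in either sample was found for 27 members, which is a normalized count of 255, and 7 more reached 4, which is a normalized count of 15. Another 8 members were above 0 but under 4, and 13 were at 0 in both samples. A count of 0 allows up to 3 reads, which is a value of 1.97 in the library labelled WT and 1.96 in that labelled KO. The counts of differing members below use the 34 members that reached a value of 4.

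Of these 34 members, 6 were at least 2-fold lower in the library labelled KO and 0 were at least 2-fold higher. Over all 13275 genes at this level, 8.32% differed by at least 2-fold, 4.75% lower and 3.58% higher. Of the 6, Cdk18 (4.54 and 2.27) and Tnni1 (5.04 and 3.76) reached a value of 4 only in the library labelled WT. With a floor of 4 in both samples, 4 of 32 members were at least 2-fold lower. At a value of 8 or more, 4 of 27 members were at least 2-fold lower (Ube2t, Rnpep, Phlda3 and Lad1) and 0 were higher. Over all 9376 genes at that level, 2.09% differed by at least 2-fold, 1.24% lower and 0.853% higher. Ube2t and Rnpep reached a value of 8 in both samples. Phlda3 (8.67 and 7.12) and Lad1 (8.74 and 4.54) reached it only in the library labelled WT, where they were higher. The shares over all genes used the same floor in either sample. The median difference of the 34 members was -0.20 on the log2 scale, with 21 of 34 below 0 (61.8%). Over all 13275 genes the median was -0.01, and 51.0% were below 0. At a value of 8 or more, the median was -0.01 over the 27 members and -0.01 over all 9376 genes.

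**Figure D1:**
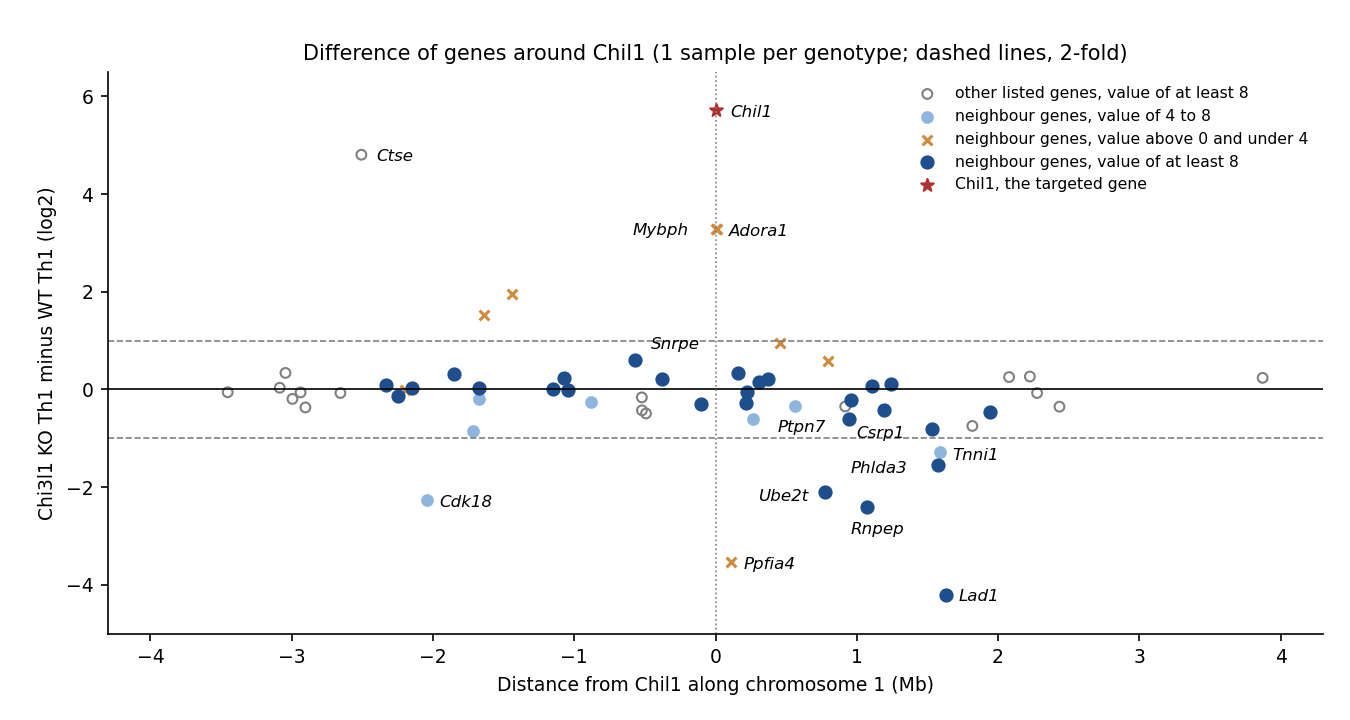
Each point is a gene within 4 Mb of Chil1, with its distance from Chil1 on the x axis (Mb) and the difference between genotypes on the y axis (log2, Chi3l1 KO Th1 minus WT Th1, 1 sample each). Filled points and crosses are the neighbour genes by level, and open points are other listed genes that reached a value of 8. Ube2t, Rnpep, Phlda3 and Lad1 lie below the 2-fold line between 0.77 and 1.63 Mb on the higher side, while the 11 well counted neighbours on the lower side lie between -0.30 and 0.61.

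The 4 large differences among the well counted members were all on the higher-coordinate side of Chil1. On that side, 4 of 16 members that reached a value of 8 were at least 2-fold lower, against 1.24% of all 9376 genes. The median difference of these 16 members was -0.35. On the lower side, 0 of 11 such members were past 2-fold in either direction, against 2.09% of all 9376 genes. Ctse, which was left out of the members, lies 2.51 Mb away on that side. It had 8.59 and 13.39, the largest difference upward of the 9376 genes. The median difference of the 11 members was 0.02. With the trend of GC content removed (described below), these medians were -0.21 on the higher side and -0.04 on the lower side. The first 0.7 Mb beyond Chil1 on the higher side held none of these 4. This boundary was chosen after the values were seen. Beyond it, 5 of 12 members that reached a value of 4 were at least 2-fold lower, and 10 of 12 were below 0. Their median difference was -0.72. Over all 13275 genes at that level, 4.75% were at least 2-fold lower and 51.0% were below 0. Elsewhere in the neighbourhood, 1 of 22 members was at least 2-fold lower and the median was 0.00.

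Lad1 (chromosome 1, 135818598 to 135833342, plus strand) encodes ladinin-1, an anchoring filament protein of epithelial basement membranes. It had a value of 8.74 in the library labelled WT and 4.54 in that labelled KO, from 440 and 23 rebuilt reads. The difference of -4.20 corresponds to a normalized count 19.2-fold lower in the library labelled KO, and the 95% Clopper-Pearson interval (exact binomial) ran from -4.93 to -3.66 on the log2 scale. This interval and those below cover counting error only. Ranked by difference among the 9376 well counted genes (value of 8 or more in either sample), Lad1 was 1st from the bottom and Ctse 1st from the top. Of 5 epithelial markers, Krt8 and Krt5 were at 0 in both samples and the summed reads were 207 in the library labelled WT and 242 in that labelled KO. Pkp1 and Elf3, epithelial genes among the members, were at 0 in both samples. Epcam carried most of this sum, with 172 and 222 reads, while Cdh1 had 25 and 20 reads and Krt18 had 10 and 0.

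Rnpep (135262712 to 135284084, minus strand) encodes aminopeptidase B, which removes basic residues from the start of peptides. The 50-base stretches of its longest transcript were shared with another annotated gene, Gm26642, for 12.3%, and with none for Lad1 and Phlda3. For Ube2t, 1.56% of the stretches were shared, with 129 other genes. Rnpep had 13.404 in the library labelled WT and 10.996 in that labelled KO, from 11183 and 2110 reads. The difference was -2.41, a normalized count 5.31-fold lower (interval -2.48 to -2.34), and the 5th lowest of the 9376 well counted genes. Per length, Rnpep had the highest level of the 27 well counted members in the library labelled WT, with 4888 reads per kb of its longest transcript. In the library labelled KO it had 922 reads per kb and ranked 10th among the same members.

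Ube2t (134962565 to 134974162, plus strand) encodes the ubiquitin-conjugating enzyme of the Fanconi anaemia DNA repair pathway. It had 12.36 in the library labelled WT and 10.26 in that labelled KO, from 5434 and 1264 reads. The difference was -2.11, a normalized count 4.31-fold lower (interval -2.20 to -2.02), which ranked 9th from the lowest of the 9376 genes. Its level per length went from 1675 reads per kb (rank 6 of 27 members) to 390 reads per kb (rank 20).

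Phlda3 (135766119 to 135769136, plus strand) encodes a pleckstrin homology protein that restrains Akt and is known as a p53 target. It had 8.67 in the library labelled WT and 7.12 in that labelled KO, from 420 and 143 reads. The difference was -1.55, a normalized count 2.94-fold lower (interval -1.84 to -1.28). The p53 target Btg2, 103 kb from Chil1 on the other side, had 11.88 and 11.58, a difference of -0.30. Mdm4, which inhibits p53, had 13.32 and 13.33, a difference of 0.01.

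**Figure D2:**
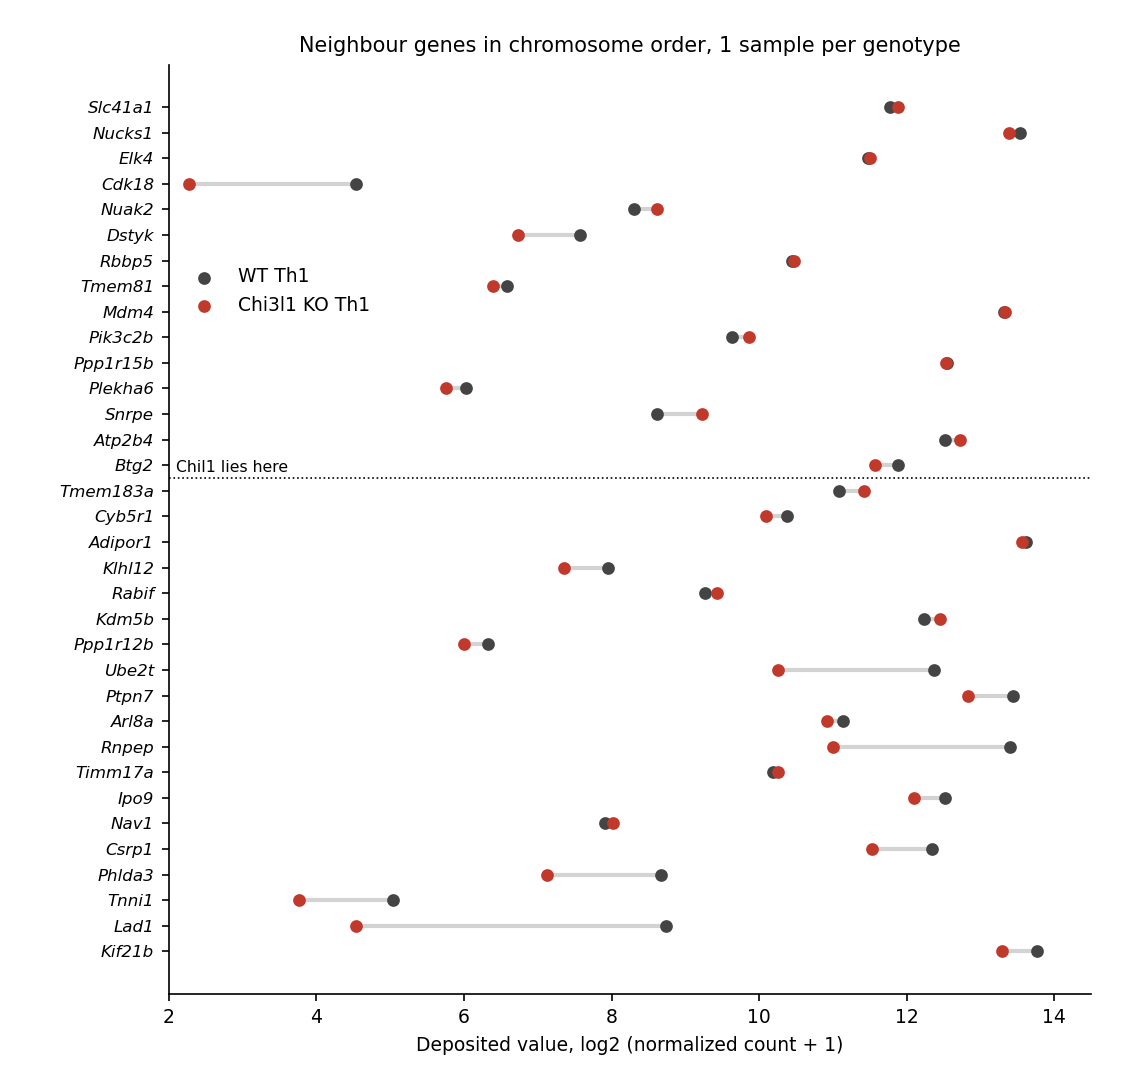
The 34 neighbour genes that reached a value of 4 in either sample are listed in chromosome order, with the deposited value (log2 of the normalized count plus 1) in the library labelled WT (dark grey) and that labelled KO (red) and a bar that joins them. The longest bars belong to Lad1 (8.74 and 4.54), Rnpep (13.404 and 10.996), Cdk18 (4.54 and 2.27) and Ube2t (12.36 and 10.26), while Elk4, Rbbp5, Mdm4 and Ppp1r15b have points that nearly coincide.

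The lower genes beyond 0.7 Mb did not form an unbroken block. Phlda3, Tnni1 and Lad1 follow each other among the members, with Tnni1 starting 10.3 kb after Phlda3 and ending 7.61 kb before Lad1. Tnni1, the slow skeletal troponin I gene, had 5.04 and 3.76, a difference of -1.28 from 33 and 13 reads (interval -2.40 to -0.38). Csrp1, which encodes a LIM domain protein of the actin cytoskeleton and ends 13.9 kb before Phlda3, had 12.35 in the library labelled WT and 11.53 in that labelled KO. Its difference of -0.82 (1.76-fold lower, interval -0.88 to -0.75) was matched or passed in size by 4.39% of the 9376 well counted genes. Csrp1, Phlda3, Tnni1 and Lad1, 4 consecutive members, were therefore all lower in the library labelled KO. This run was picked after the values were seen, and 51.0% of all genes that reached a value of 4 were below 0. Of 5 muscle markers, Des and Myog were at 0 in both samples. The summed reads were 174 in the library labelled WT and 275 in that labelled KO. Myh11 carried most of this sum, with 155 and 222 reads, while Acta1 had 13 and 47 and Ckm had 6 and 6.

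Between and around them were detected members with smaller differences, of which 3 lay within 0.25 of 0. Timm17a, which lies 11.1 kb from Rnpep, had 10.18 and 10.25, a difference of 0.07 (interval -0.05 to 0.18) that became -0.12 with the trend of GC content removed. Nav1, a microtubule-associated navigator gene between Ipo9 and Csrp1, had 7.91 and 8.02, a difference of 0.11. Arl8a, a lysosomal small GTPase gene between Ube2t and Rnpep, had 11.14 and 10.93, a difference of -0.21. Ptpn7, a phosphatase gene of haematopoietic cells that acts on MAP kinases, lies beside Arl8a and had 13.45 in the library labelled WT and 12.83 in that labelled KO, a difference of -0.61 (1.53-fold lower, interval -0.66 to -0.57). A difference of at least that size in either direction was seen in 10.9% of the well counted genes. The nuclear import gene Ipo9 had 12.52 and 12.10, a difference of -0.42, and the kinesin gene Kif21b, the farthest member on this side, had 13.76 and 13.29, a difference of -0.47. Ube2t and Rnpep, 289 kb apart, were thus separated by detected members with differences no larger than that of Ptpn7. Genes of this stretch that are not members include Tmem9, between Lad1 and Kif21b (10.77 and 10.02, -0.75), and Ptprv, beside Ptpn7 (9.51 and 9.16, -0.35). Of all 13 listed genes from 0.7 to 2 Mb that reached a value of 8, 11 were below 0, with a median of -0.615. Over all 9376 genes, 51.0% were below 0.

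Next to Chil1 the members had few reads. Mybph, a muscle myosin-binding protein gene that starts 3.27 kb beyond Chil1, had 0 reads in the library labelled WT and 9 in that labelled KO, values of 0 and 3.28. Adora1, the adenosine A1 receptor gene, lies on the minus strand with its 3′ end 9.04 kb beyond Chil1, and also had 0 and 9 reads. For each of these genes, the exact interval of the log2 ratio began at 0.98. These genes lie on opposite strands and overlap by 2010 bases, and 45.0% of the 50-base stretches of the Mybph transcript are also in the Adora1 transcript on the other strand. Whether the counting used strand is not stated, so reads of Mybph and Adora1 cannot be told apart. Chil1, Mybph and Adora1, which follow each other on the chromosome, all had at most 1 read in the library labelled WT and more in that labelled KO.

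The next member, Ppfia4, a liprin gene, had the opposite pattern, with 11 reads in the library labelled WT and 0 in that labelled KO and an exact interval of the log2 ratio that ended at -1.33. Genes with so few reads differed often. Of all 2873 genes above 0 but under 4 in both samples, 50.8% were at least 2-fold apart, 23.4% higher and 27.4% lower. Of the 8 members in this class, Mybph, Adora1, Cntn2 and Nfasc were higher by at least 2-fold and Ppfia4 was lower, 5 in all. Cntn2 and Nfasc, adhesion genes of axons, had 0 reads in the library labelled WT and 2 and 3 in that labelled KO. Slc45a3 had 1 read in each sample, Syt2 had 0 and 1, and Lgr6 had 1 and 2. On the lower side of Chil1, Fmod and Prelp, extracellular matrix proteoglycan genes, were at 0 in both samples.

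From Tmem183a to Ppp1r12b, within the first 0.7 Mb on the higher side, the detected members differed by no more than 0.60 in size. Adipor1, the adiponectin receptor gene, had 13.62 in the library labelled WT and 13.56 in that labelled KO and ranked 2nd of the 27 members per length in the library labelled WT, with 3761 reads per kb. Its difference of -0.06 became 0.06 with quantile normalization, scaling to Actb or the trend with GC content removed. Kdm5b, a demethylase of histone H3 lysine residues, had 12.24 and 12.46, a difference of 0.22. Tmem183a, a membrane protein gene, had 11.08 and 11.42, a difference of 0.34, and the reductase gene Cyb5r1 had 10.38 and 10.10, a difference of -0.29. Klhl12, a ubiquitin ligase adaptor gene, stood lowest in this stretch with 7.96 and 7.36, a difference of -0.60 from 255 and 168 reads (interval -0.89 to -0.32). Rabif had a difference of 0.16, and Ppp1r12b, a myosin phosphatase subunit gene with 82 and 65 reads, had -0.33, with an interval from -0.83 to 0.15 that holds 0.

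**Figure D3:**
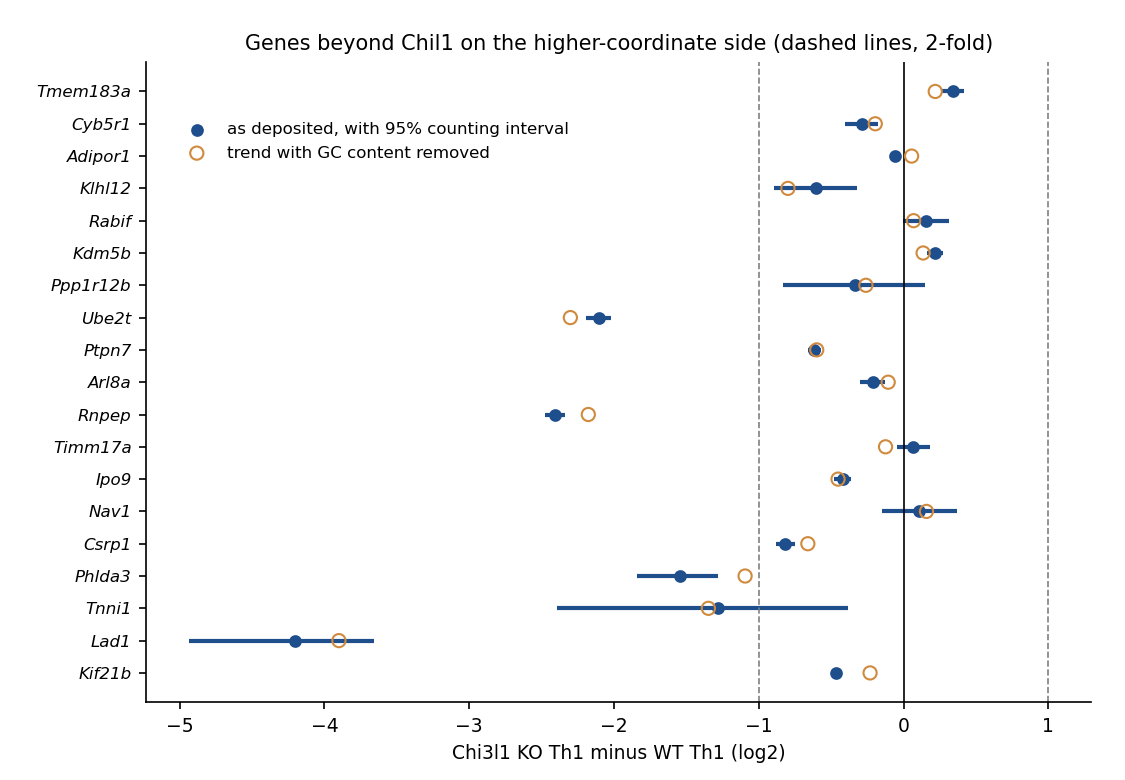
For the 19 neighbour genes on the higher-coordinate side that reached a value of 4, in chromosome order, filled points give the difference between genotypes (log2, x axis) with bars for the exact binomial 95% interval from rebuilt reads, which covers counting error only. Open points give the difference after the trend with GC content was removed. The intervals of Ube2t, Rnpep, Phlda3 and Lad1 lie wholly beyond the 2-fold line, and the open points of these genes lie at -2.30, -2.18, -1.09 and -3.90.

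On the lower side of Chil1, the well counted members were mostly close between genotypes as deposited. Of 11 members that reached a value of 8, 8 lay within 0.25 of 0 on the log2 scale. That is 72.7%, against 50.8% of all genes at that level. With the GC trend removed, Nucks1 (-0.37) and Pik3c2b (0.37) also lay farther than 0.25 from 0, besides Snrpe, Nuak2 and Btg2. Within 1 Mb of Chil1 on this side, 2 of 6 listed genes at that level, members or not, lay within 0.25 as deposited (median -0.23). Nucks1, a chromatin-associated nuclear protein gene, had 13.53 and 13.39, a difference of -0.14. Ppp1r15b, which encodes the subunit that directs the phosphatase to eIF2α, had 12.54 and 12.53, a difference of -0.01. Atp2b4, a plasma membrane calcium pump gene, had 12.52 and 12.72, a difference of 0.21. Elk4, an ETS family transcription factor gene, had 11.47 and 11.50, and Rbbp5, a subunit of histone methyltransferase complexes, had 10.45 and 10.47, differences of 0.02 each that turned below 0 with the GC trend removed, as did the 0.01 of Mdm4. The magnesium transporter gene Slc41a1 had 11.78 and 11.88, and the lipid kinase gene Pik3c2b had 9.63 and 9.86.

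Snrpe, a core protein of spliceosomal particles, was the well counted member with the largest difference upward. It had 8.62 in the library labelled WT and 9.22 in that labelled KO, from 404 and 616 reads, a difference of 0.61 (1.52-fold higher, interval 0.42 to 0.79). Differences of at least that size in either direction were seen in 11.3% of well counted genes, and 20.8% of the 50-base stretches of its longest transcript are shared with other annotated genes, so its reads are less certain. Nuak2, an AMPK-related kinase gene, had 8.30 and 8.62, a difference of 0.32.

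The larger differences on the lower side came from genes with fewer reads. Cdk18, a cyclin-dependent kinase family gene 2.04 Mb from Chil1, had 4.54 in the library labelled WT and 2.27 in that labelled KO, from 23 and 4 reads. Its difference of -2.27 had a wide interval, from -4.52 to -0.98. Dstyk, a dual kinase gene, had 7.58 and 6.74, a difference of -0.84 from 196 and 109 reads (interval -1.20 to -0.50). Tmem81 had a difference of -0.19 and Plekha6 one of -0.26, both with intervals that hold 0.

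**Figure D4:**
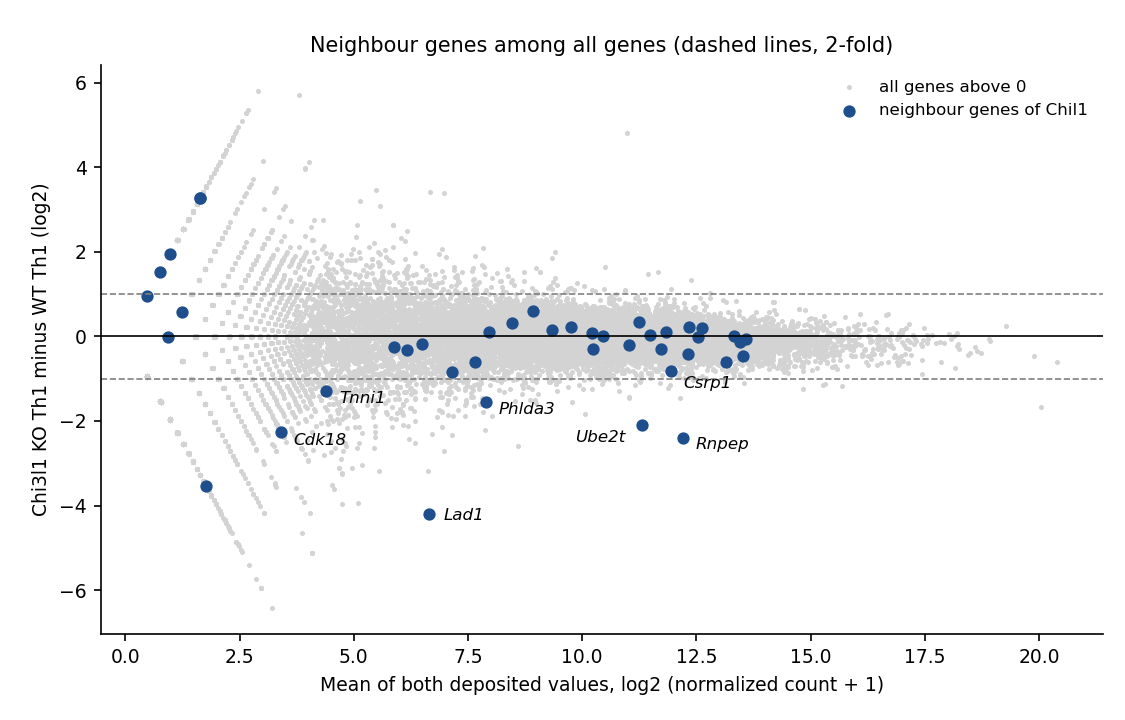
Every gene above 0 in either sample is plotted by the mean of its deposited values (x axis, log2 of the normalized count plus 1) and its difference between genotypes (y axis, log2), with the neighbour genes of Chil1 in blue. Rnpep, at -2.41, and Ube2t, at -2.11, lie far below the grey cloud of genes of similar level, and Lad1, at -4.20, lies below all genes that reached a value of 8.

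By role, the lower members did not belong to 1 kind of gene. The groups are small, and 4.75% of all 13275 genes at this level were at least 2-fold lower. Of 8 detected genes of transcription, chromatin and cell cycle (value of 4 or more), Ube2t and Phlda3 were at least 2-fold lower, and the median difference was -0.06. Of 7 kinase, phosphatase subunit and lipid kinase genes, only Cdk18 was past 2-fold, with a median of -0.33. Of 8 genes of splicing, import, trafficking and related upkeep, only Rnpep was past 2-fold, with a median of -0.25. Of 4 detected muscle and cytoskeleton genes, only Tnni1 was past 2-fold, with a median of -0.64. Of 2 detected epithelial junction and anchoring genes, Lad1 was at least 2-fold lower and Plekha6 was not (-0.26). The 3 detected transporter and receptor genes, Slc41a1, Atp2b4 and Adipor1, lay between -0.06 and 0.21. The 13 members at 0 in both samples were mostly genes of muscle, nerve, epithelium and matrix, namely Tnnt2, Lmod1, Lrrn2, Gpr37l1, Kiss1, Pkp1, Elf3, Optc, Prelp and Fmod, with Lemd1, Klhdc8a and Shisa4 besides.

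Among the other 17 listed genes within 4 Mb that reached a value of 8, without Chil1, Chit1 and Ctse, 0 were past 2-fold, with a median difference of -0.07 and a range from -0.75 to 0.34. Farther out on chromosome 1, 457 genes at that level held 4 genes at least 2-fold lower and 6 at least 2-fold higher, with a median of 0.09. The 27 neighbour genes and the 17 other genes together therefore held as many lower genes (4) as the 457 genes of chromosome 1 beyond 4 Mb. This is a comparison of counts without a test, and the members were chosen with earlier results of these data known.

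Differences between these samples also moved with the GC content of transcripts. Over well counted genes, the median difference went from 0.23 in the lowest of 20 bins of GC content to -0.45 in the highest. Among the lower members, GC content was 43.7% for Ube2t, 56.6% for Rnpep, 62.6% for Phlda3 and 57.8% for Lad1. With this trend removed, all 6 members stayed at least 2-fold lower, with -2.30 for Ube2t, -2.18 for Rnpep, -1.09 for Phlda3, -3.90 for Lad1, -2.05 for Cdk18 and -1.35 for Tnni1. Of these 6, Phlda3 moved most.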

How the data were processed

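RNA of 1 WT Th1 and 1 Chi3l1 KO Th1 sample was sequenced from both ends after poly(A) selection (SENSE mRNA-Seq kit). The authors mapped reads with TopHat (build mm10 per the labels), counted unique and multiple alignments, applied a global normalization and used edgeR, and the deposited log2 values per gene were read here as log2 of a normalized count plus 1, a unit inferred from the values. TopHat version, annotation and counter are not given in the sources used here.

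The worth of 1 read, found by a grid search over values up to 6, was 0.969 in the library labelled WT and 0.968 in that labelled KO (sums of 70623845 and 62958938 reads). Of these low values, 99.93% for WT and 99.95% for KO came within 0.1 of a whole read. Fold changes of members, exact binomial 95% intervals of rebuilt reads, and counts past 2-fold were computed. No test was possible. Members and lists were chosen with earlier results of these data known. Members described with both values are those past 2-fold that reached a value of 4, the 3 nearest to Chil1 on each side, the 10 with the highest mean value, and those past 1.5-fold that reached a value of 8. Others are given as further examples of their stretch or role. Coordinates, transcript length and GC content came from GENCODE M21 (GRCm38, 95.7% of listed symbols, all 55 members) and promoters from RefSeq (51 of 55 members). Scripts were tested on simulated data and run in Python 3.11.15 (scipy 1.17.1, pandas 2.3.3, numpy 2.4.6; figures with matplotlib 3.10.9).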

Additional observations from a re-analysis of the deposited data

How the results depend on the processing

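The 6 lower members (Cdk18, Lad1, Phlda3, Rnpep, Tnni1 and Ube2t) and 0 higher members were found with a pseudocount of 0.1, quantile normalization, median-ratio scaling, removal of the GC trend and scaling to Actb. The count of members past 2-fold went to 11 without a filter on low values (4 higher), to 11 at 1.5-fold (1 higher and 10 lower), and to 12 of 66 genes with the other listed genes within 4 Mb added (2 higher and 10 lower). A floor of 4 in both samples, a floor of 8 or a threshold of 3-fold left 4, and members within 2 Mb of Chil1 alone gave 5. Over all genes, 8.32% were past 2-fold at a value of 4 or more and 2.09% at 8 or more. Among genes above 0 but under 4 in both samples, 50.8% were. At a value of 4 or more, 20.2% of all genes differed by at least the 0.61 of Snrpe. Shares over all genes were not computed at 3-fold or with a floor of 4 in both samples. The median difference of -0.20 went to -0.085 with scaling to Actb, which shifts the median of all genes by 0.12, to -0.034 without a filter and to -0.011 at a floor of 8. Of the 34 members, 5 with differences of at most 0.07 changed sign with the GC trend removed (Elk4, Rbbp5, Mdm4, Adipor1 and Timm17a), and 2 with quantile normalization and with scaling to Actb (Adipor1 and Ppp1r15b). No paired analysis was possible because each genotype has 1 sample, and for the same reason no sample could be left out. Read sampling limits members with few reads, and variation between mice or cultures was not measured.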

Other observations

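Some less abundant genes of the same region that are not among the members also differed by at least 2-fold. They were chosen after their values were seen, have no replicate, and 8.32% of all genes at their level differed by at least 2-fold. Mgat4e, a glycosyltransferase family gene 0.35 Mb beyond Chil1 on the higher side, had 27 reads in the library labelled WT and 1 in that labelled KO, a difference of -3.83 with a counting interval from -10.1 to -2.16. Tmcc2, which lies 1.79 Mb away on the lower side beside Dstyk, had 128 and 36 reads, a difference of -1.80 (interval -2.41 to -1.29). The cytokine genes Il24 and Il10 lie more than 3 Mb away on the lower side. Il24 had 65 reads in the library labelled WT and 166 in that labelled KO, a difference of 1.34, and Il10 had 23 and 58 reads, a difference of 1.30. The remaining genes of this kind were AA986860 (-1.42) and Gm19705 (-1.29).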
